A study of Homo sapiens with 12 samples.

Results

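STAT5B peaks of the DND-41 T cell acute lymphoblastic leukemia (T-ALL) cell line, called against input DNA of the same line, numbered 6015 of the 24844 peaks listed for 6 T-ALL lines. All rows of the DND-41 list were taken, each described by its summit, the position of highest enrichment, and by its width. STAT5B ChIP-Seq was performed on formaldehyde-fixed chromatin of these human lines. DND-41, SUP-T13, HSB-2, and KOPT-K1 have high tyrosine phosphorylation of STAT5, and JURKAT and LOUCY low phosphorylation, and each line had 1 STAT5B and 1 input library. DND-41, labelled as a wild-type precursor T cell line and grown in serum-containing medium without a named stimulus, carries an activating *IL7R* insertion, a loss-of-function *PTPRC* mutation, and no mutation in the SH2 domain of STAT5B. With 1 library of each kind there were no replicates, and no test between lines was made. Read depths were not analysed here. Chromosomes 1 and 2 held 97.7% of the DND-41 peaks, and how the caller was set is not stated. Why few peaks were listed elsewhere was not tested, nor whether the list reflects data of the whole genome. A gene there without a summit may thus still be bound, and shares of all protein-coding genes hold only for the list.

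STAT5B is a latent transcription factor that is phosphorylated on tyrosine by JAK kinases downstream of cytokine receptors, among them the interleukin-7 receptor of T cell progenitors. Phosphorylated STAT5 forms dimers through its SH2 domain, enters the nucleus, and binds gamma-activated sites (GAS), palindromes with the letters TTCNNNGAA. In developing T cells, STAT5 supports survival and proliferation.

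The GAS palindrome marked the strong DND-41 peaks. It lay within 50 bp of the summit in 92 of 151 peaks (60.9%, 95% exact binomial interval 52.7% to 68.8%) with a significance of at least 20, where significance is the −log10 q and q is the false discovery rate given by the peak caller. It lay there in 625 of all 6015 peaks (10.4%, 9.63% to 11.2%), and in 3.76% (3.43% to 4.11%) of the windows 1000 bp to either side. In windows of the same length spaced along chromosomes 1 and 2 the share was 3.65%, and in windows centred on the start sites of all protein-coding genes it was 1.70%. Intervals cover counting error only, and a share is called above another where its interval lies wholly above the other's.

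The windows around strong summits between genes and in introns are shown first, since they include the pair of highest significance in the list. Each is the plus strand of GRCh38, centred on the GAS palindrome, which is in capitals.
Between genes, nearest start site of *PKDCC*, chr2:41896677-41896737: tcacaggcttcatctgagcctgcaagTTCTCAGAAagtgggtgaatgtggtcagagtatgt
Between genes, nearest start site of *B3GNT2*, chr2:62288369-62288429: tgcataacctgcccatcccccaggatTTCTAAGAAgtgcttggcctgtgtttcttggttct
*AFF3* intron 4, chr2:100089093-100089153: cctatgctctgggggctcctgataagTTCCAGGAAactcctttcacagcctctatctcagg
*SLC8A1* intron 2, chr2:40346141-40346201: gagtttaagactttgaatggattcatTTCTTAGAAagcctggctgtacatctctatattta
*NCK2* intron 1, chr2:105770184-105770244: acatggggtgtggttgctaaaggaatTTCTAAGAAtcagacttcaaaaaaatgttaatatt
*STK39* intron 2, chr2:168181835-168181895: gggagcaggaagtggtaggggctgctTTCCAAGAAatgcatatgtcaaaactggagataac
The summit nearest *PKDCC* had the highest significance of the list, 106, with a fold enrichment over input of 6.18, and that nearest *B3GNT2* had 93.9 and 5.95. The centre of the palindrome was 21 bp from the first summit and 26 bp from the second. In *SLC8A1*, the gene of a sodium-calcium exchanger, the palindrome was 1 bp from the summit, with a fold enrichment of 6.67. *AFF3* encodes a nuclear protein of the AF4 family, and its summit had a fold enrichment of 5.84. *NCK2* encodes an adaptor that links tyrosine kinase signaling, including that of the T cell receptor, to the actin cytoskeleton. Its intron 1 summit had a fold enrichment of 5.17 and a significance of 65.8, and the window shown also holds the RUNX letters TGTGGTT. *STK39* encodes a kinase that regulates ion cotransporters, and its window holds the ETS letters CAGGAAG and the GATA letters. The listed intervals of these summits were long. They were 1876032 bp wide near *PKDCC*, 3336772 near *B3GNT2*, 1502702 in *AFF3*, 1162331 in *SLC8A1*, 386225 in *NCK2*, and 616278 in *STK39*.

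The share of summits with GAS rose with the strength of the peak. It was 4.92% (3.81% to 6.24%) of 1301 peaks with a significance under 2 and 5.43% (4.55% to 6.43%) of 2338 peaks from 2 to 3. It reached 11.3% (9.81% to 12.9%) of 1655 peaks from 3 to 5, 25.8% (21.6% to 30.3%) of 407 peaks from 5 to 10, and 30.7% (23.7% to 38.4%) of 163 peaks from 10 to 20. At 20 to 50 it was 56.6% (46.6% to 66.2%) of 106 peaks, and at 50 or more 71.1% (55.7% to 83.6%) of 45. Neighbouring bins whose intervals overlap are not told apart, but the bin from 20 to 50 lay above every bin under 20. Of the 10 peaks with the highest significance, 8 had the palindrome, and of the highest 50, 36. Those of the 10 without it lay in introns of *EPAS1* and *CRIM1*. The *EPAS1* summit had a significance of 90.95 and a fold enrichment of 4.7. The *CRIM1* summit had 89.27 and 7.18, the highest fold enrichment of the list. By fold enrichment, the share was 55.5% (46.1% to 64.6%) of 119 peaks at 4 or more and 5.19% (4.29% to 6.20%) of 2179 peaks from 2 to 2.2.

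**Figure D1:**
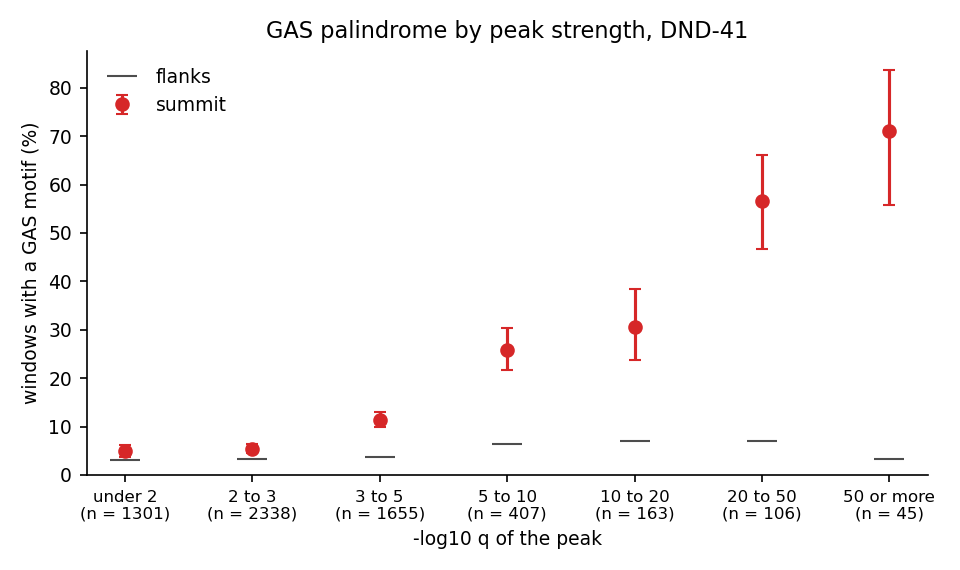
Share of DND-41 peaks with a GAS palindrome within 50 bp of the summit (red points, bars are 95% exact binomial intervals) by significance (−log10 q), with the share in windows 1000 bp away (gray lines). The share goes from 4.92% under 2 to 71.1% at 50 or more, and the flanks stay at 7.11% or less.

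Strong and weak peaks lay in different places, and the rise was seen on chromosome 1, on chromosome 2, and among short intervals. On chromosome 1, GAS lay at 5.09% (3.89% to 6.51%) of summits with a significance under 2 and at 28.7% (22.7% to 35.4%) of 209 summits from 5 to 10. On chromosome 2 it lay at 4.03% (1.32% to 9.16%) under 2 and at 61.0% (51.8% to 69.6%) of 123 summits at 20 or more. In the 5 peaks of chromosome 1 at 20 or more, 3 had it. Among intervals up to 5 kb wide, the share was 5.10% (3.92% to 6.50%) under 2 and 66.7% (52.1% to 79.2%) of 51 at 20 or more. On chromosome 3 the intervals overlapped, at 38.5% (13.9% to 68.4%) under 5 and 52.8% (35.5% to 69.6%) at 5 or more. They also overlapped in the 34 peaks outside chromosomes 1, 2, 3, and Y, at 38.9% (17.3% to 64.3%) under 20 and 68.8% (41.3% to 89.0%) at 20 or more.

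The palindromes were centred on the summits. In peaks with a significance of at least 20, the 20-bp bin with most motifs held one in 23.8% of peaks, against a mean of 1.37% in bins more than 200 bp away. The median distance from the summit to the nearest palindrome within the window was 15 bp in these 92 peaks and 19 bp in all 625. It was at most 20 bp in 62 of the 92 (67.4%) and in 334 of the 625 (53.4%).

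**Figure D2:**
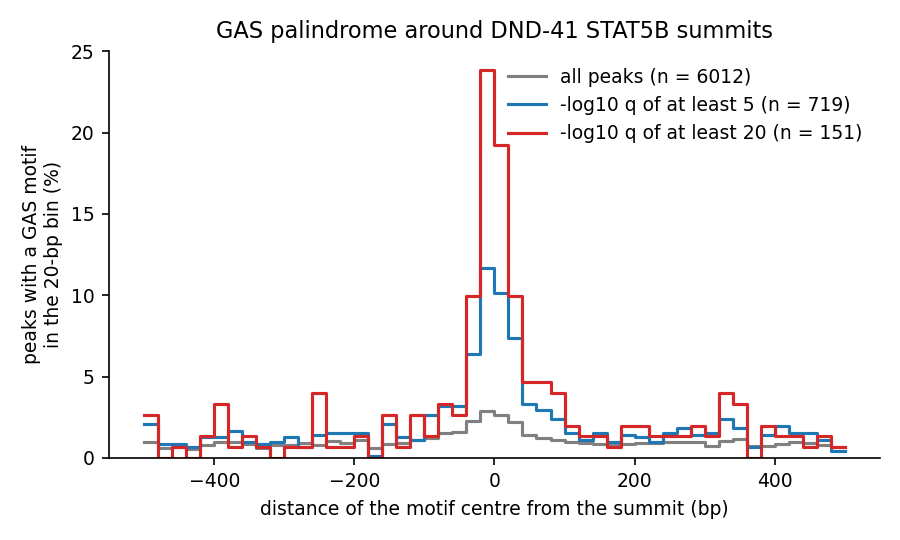
Share of DND-41 peaks with a GAS palindrome in each 20-bp bin by distance from the summit, for all peaks (gray), peaks with a significance of at least 5 (blue), and at least 20 (red). The highest bins are 2.89%, 11.7%, and 23.8%, next to the summit in each set.

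The spacers at summits differed from those in flanks. A pyrimidine after TTC and a purine before GAA were present in the nearest palindrome of 437 of 625 summits with GAS (69.9%, 66.2% to 73.5%) and of 194 of 452 flanking windows with GAS (42.9%, 38.3% to 47.6%). At a significance of at least 5 the share was 193 of 247 summits (78.1%, 72.5% to 83.1%) and 49 of 93 of their flanking windows with GAS (52.7%, 42.1% to 63.1%). The most frequent sites in these 247 were TTCTCAGAA, read as TTCTGAGAA on the other strand, with 52, TTCCAGGAA with 46, TTCCTAGAA with 30, and TTCCAAGAA with 21. TTCTCAGAA was also frequent in flanks: it made up 21.1% of the sites at these summits and 33.3% of those in their flanks, and 17.0% and 14.4% over all peaks. Over all peaks, TTCCTAGAA made up 9.92% of the sites at summits and 2.43% of those in flanks, and TTCCAGGAA 17.4% and 8.41%. By contrast, TTCAAAGAA made up 4.64% at summits and 10.6% in flanks. Summits with 2 or more palindromes within 100 bp, a tandem arrangement to which STAT5 tetramers are known to bind, numbered 58 of 721 (8.04%, 6.17% to 10.3%) at a significance of at least 5, against 24 of 1438 of their flanking windows (1.67%, 1.07% to 2.47%). Without chromosome 3 they numbered 41 of 685 (5.99%, 4.33% to 8.03%) and 7 of 1368 (0.512%, 0.206% to 1.05%). Over all peaks they numbered 102 of 6015 (1.70%, 1.39% to 2.06%), and 50 of 12025 in flanks (0.416%, 0.309% to 0.548%).

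For the same arms at other spacings, the intervals of summits and flanks overlapped. With 2 bases between the arms, TTCNNGAA, they lay at 3.19% (2.03% to 4.75%) of the 721 summits with a significance of at least 5 and in 2.99% (2.17% to 4.01%) of their flanks. With 4 bases between them, they lay at 5.27% (3.76% to 7.16%) and in 3.96% (3.02% to 5.11%), and in the 474 of these summits without GAS at 6.12% (4.14% to 8.67%) and in 3.28% (2.24% to 4.63%).

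Letters bound by some transcription factors of T cells were more frequent at these 721 summits than beside them. All motifs were searched on both strands. The RUNX letters TGTGGTT, for the family that directs T lineage development, lay at 65 summits (9.02%, 7.03% to 11.4%) and in 2.09% (1.41% to 2.97%) of flanks. The ETS letters CAGGAAG lay at 55 (7.63%, 5.80% to 9.81%) and in 2.50% (1.76% to 3.45%), and overlapped a GAS palindrome at 9 summits. The E-box CAGCTG, bound by basic helix-loop-helix factors, lay at 50 (6.93%, 5.19% to 9.04%) and in 3.27% (2.41% to 4.32%). The SP letters GGGCGG of GC-rich promoters lay at 51 (7.07%, 5.31% to 9.20%) and in 2.23% (1.53% to 3.13%). Across windows along chromosomes 1 and 2, the shares were 1.90% for RUNX, 2.72% for ETS, 3.52% for CAGCTG, and 1.46% for SP. At start sites of all protein-coding genes they were 0.988%, 4.77%, 8.28%, and 35.7%. RUNX and ETS letters exceeded the flanks on chromosome 1 and on chromosome 2 alone, and outside promoters. CAGCTG did so in none of these sets, each of which holds summits with GAS as well as without. On chromosome 2 it lay at 6.51% (4.33% to 9.33%) against 3.37% (2.25% to 4.84%). SP letters exceeded the flanks on chromosome 2 but not on chromosome 1 or outside promoters. At the 141 promoter summits, CAGCTG exceeded the flanks, with 10.6% (6.08% to 16.9%) against 2.48% (1.00% to 5.05%), as did SP letters. The intervals of RUNX and ETS letters overlapped there. Over all 6015 peaks, RUNX and SP letters lay above the flanks, and the intervals of ETS letters and CAGCTG overlapped.

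These letters were also found without GAS. In the 474 summits with a significance of at least 5 and no palindrome, RUNX letters lay at 9.07% (6.64% to 12.0%), against 2.12% (1.30% to 3.25%) of flanks, and ETS letters at 6.96% (4.84% to 9.64%), against 2.44% (1.55% to 3.63%). CAGCTG lay at 7.38% (5.20% to 10.1%), against 2.97% (1.98% to 4.26%), and SP letters at 8.65% (6.28% to 11.6%), against 2.75% (1.81% to 4.01%), and both exceeded the flanks on chromosome 2 but not on chromosome 1. Among these 474, RUNX letters exceeded the flanks on chromosome 1, with 6.33% (3.08% to 11.3%) against 0.949% (0.196% to 2.75%), and on chromosome 2, with 11.6% (8.10% to 16.0%) against 2.73% (1.53% to 4.46%), and ETS letters on chromosome 2 but not on chromosome 1, with 6.33% (3.08% to 11.3%) against 2.85% (1.31% to 5.34%). For the GATA letters AGATAA, the AP-1 letters TGANTCA, the cyclic AMP response element TGACGTCA, the TCF and LEF letters CTTTGAT, the NF-Y letters CCAAT, and the other E-box searched, CAGATG, the intervals of the 721 summits and their flanks overlapped. Mean GC content was 46.3% at these summits and 42.0% in their flanks, and its part in the motif shares was not tested.

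By genomic place, the whole list was close to positions 20 kb from its summits. Promoters, within 2 kb of a start site of a GENCODE protein-coding gene, held 547 summits (9.09%, 8.38% to 9.85%), introns 2338 (38.9%, 37.6% to 40.1%), exons 116 (1.93%, 1.60% to 2.31%), and sites outside genes 3012 (50.1%, 48.8% to 51.4%). A further 2 lay on unplaced or alternate contigs. Positions spaced along chromosomes 1 and 2 fell in promoters in 7.91%, introns in 37.9%, and outside genes in 52.3%, and positions 20 kb from each summit in 9.37%, 38.6%, and 49.8%. The promoter share of the list thus lay above that of the chromosomes, and its share outside genes below. The shares 20 kb away lay within the intervals of the list. Strong peaks were more often promoter peaks: of the 721 with a significance of at least 5, 141 (19.6%, 16.7% to 22.6%) were in promoters and 223 (30.9%, 27.6% to 34.5%) in introns.

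Among these strong peaks, GAS was less frequent at promoter summits than at distal ones. It lay at 33 of 141 promoter summits (23.4%, 16.7% to 31.3%), 74 of 223 intron summits (33.2%, 27.0% to 39.8%), and 137 of 350 distal summits (39.1%, 34.0% to 44.5%), and the interval of the intron share overlapped both others. Promoter and distal shares overlapped over all peaks, at 10.2% (7.83% to 13.1%) and 11.2% (10.1% to 12.4%), and at a significance of at least 20, at 52.0% (31.3% to 72.2%) and 67.5% (55.9% to 77.8%). GGGCGG lay at 31 of the 141 promoter summits (22.0%, 15.4% to 29.7%), against 4.61% (2.48% to 7.75%) of their flanks. At start sites of all protein-coding genes its share was higher, 35.7%. Summits in promoters lay at a median of 589 bp from the nearest start site, and 148 bp in the 25 with a significance of at least 20, of which 19 were within 500 bp. Distal summits were at a median of 83.5 kb from a protein-coding start site.

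A promoter summit was present at 447 protein-coding genes, 2.23% of all 20033, and at 437 of the 3308 genes on chromosomes 1 and 2, 13.2%. With canonical start sites alone the number was 217 in place of 447. At 55 of the 447, a promoter summit had GAS. With summits in the gene body added, 926 genes were reached, 4.62% of all and 27.4% of those on chromosomes 1 and 2. The 15 promoter summits with the highest significance all lay on chromosome 2, and 10 of them had GAS. Windows of the leading promoter sites are shown because they pair high enrichment with the palindrome at a start site. The *NAGK* window is shorter, as it lies next to an untranslated region.
*THADA*, chr2:43508320-43508380: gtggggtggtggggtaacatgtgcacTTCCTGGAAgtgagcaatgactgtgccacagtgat
*GAD1*, chr2:170843875-170843935: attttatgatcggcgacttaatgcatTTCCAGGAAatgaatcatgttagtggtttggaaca
*MTHFD2*, chr2:74206316-74206376: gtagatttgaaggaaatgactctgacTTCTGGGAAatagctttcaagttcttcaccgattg
*SRBD1*, chr2:45611414-45611474: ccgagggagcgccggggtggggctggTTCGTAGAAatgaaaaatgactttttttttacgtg
*FBXO41*, chr2:73284794-73284854: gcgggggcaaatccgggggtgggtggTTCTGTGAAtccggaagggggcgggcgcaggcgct
*NAGK*, chr2:71068957-71068985: cgcccctttcTTCCACGAAacacccactc
The *THADA* summit had the highest fold enrichment of a promoter with GAS, 6.04, and was 384 bp downstream of an internal start site, in intron 23 of the canonical transcript. *GAD1* encodes a glutamate decarboxylase. Its summit had a fold enrichment of 5.43 and lay in intron 6, 119 bp from an alternative start site, and both KOPT-K1 and HSB-2 had a summit within 500 bp. *MTHFD2*, a mitochondrial enzyme of folate metabolism that is highly expressed in proliferating cells, had a summit in intron 2, 29 bp from an alternative start site and enriched 4.75-fold, and HSB-2 also had a summit within 500 bp. At *SRBD1*, *FBXO41*, which encodes an F-box protein, and *NAGK*, the kinase of N-acetylglucosamine salvage, the summits were 169, 340, and 3 bp from a start site, with fold enrichments of 4.62, 4.28, and 4.03. That of *NAGK* was at an alternative start site, in intron 1 of the canonical transcript. The *SRBD1*, *FBXO41*, and *NAGK* intervals were 1178187, 742441, and 2784331 bp wide. Those of *THADA*, *GAD1*, and *MTHFD2* were 759830, 2694, and 58483 bp wide. The *FBXO41* window also holds GGGCGG, and that of *GAD1* the AP-1 letters. The ETS letters in the *THADA* window, read on the other strand, overlap the palindrome and are not a separate site.

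Other leading promoters with GAS were those of *ANKRD36C*, which had the highest significance of any promoter, 69.9, at 1240 bp from the start site, and *TMEM87B*, *TIA1*, and *SH2D6*, with significance values of 35.7, 34.9, and 37.4. *TIA1* encodes an RNA-binding protein of stress granules, and the *TIA1* summit was also within 2 kb of a *C2orf42* start site. The *SH2D6* summit was also within 2 kb of that of *CAPG*, which encodes an actin-capping protein. By fold enrichment, *POLR1B*, which encodes a subunit of RNA polymerase I, followed with 3.85, and on chromosome 1 *MAST2*, *ADAMTSL4*, and *ECHDC2* with 3.69, 3.29, and 3.25. The summits of *MAST2*, *ADAMTSL4*, and *ECHDC2* were near internal start sites, in introns 11, 3, and 1 of the canonical transcripts.

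Of the 15 strongest promoter summits, 5 had no GAS. *CCT7*, which encodes a subunit of the cytosolic chaperonin, had its summit 12 bp from the start site, with a significance of 50.6 and a fold enrichment of 4.25, and the same summit was 1085 bp from *PRADC1*. *HTRA2*, a mitochondrial protease, and *AUP1* shared a summit with a significance of 37.6. At *SNRNP27*, a spliceosome component, the value was 35.9. *MAIP1* and *TYW5* shared a summit with 27.9, which HSB-2, SUP-T13, and LOUCY also had, and *MDH1*, the cytosolic malate dehydrogenase, and *WDPCP* shared 1 with 27.2.

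In gene bodies, the GAS summits of highest fold enrichment were all in introns. They were in *GLI2*, a transcription factor of the Hedgehog pathway (6.79), *SLC8A1*, *DNAH6* (6.33), *AFF3*, *NEB* (5.33), *PROKR1* (5.31, also inside *APLF*), *NCK2*, *UXS1* (5.16), *PPP1R21* (5.10), and *STK39* (5.04). KOPT-K1 had a summit within 500 bp of those in *NEB* and *STK39*. The *GLI2* summit was 66894 bp from the nearest start site. Distal GAS summits of highest fold enrichment had as nearest start sites those of *TEKT4* (6.66), *PLGLB2* (6.57), *HNRNPA3* (6.22), *PKDCC*, *FHL2* (6.02), *B3GNT2*, *SH2D6* (5.94), *UXS1* (5.82), *AQP7B* (5.79), and *LNPK* (5.77). Their distances to those start sites ran from 13347 bp for *SH2D6* to 386154 bp for *HNRNPA3*, and a nearest gene is a position, not a target.

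Among cytokine receptors and JAK-STAT genes, 8 of 50 had a summit in the promoter or body, all among the 17 on chromosomes 1 and 2. *STAT4*, a transcription factor of interleukin-12 signaling, had 5, of which 2 had GAS. Both are shown with the GAS summit in *CD8B*. The sites in *STAT4* intron 5 and *CD8B* are the most significant GAS sites of the lists. That in *STAT4* intron 3 lies below those of *FOS* (6.68) and *NOTCH2* (5.58).
*STAT4* intron 5, chr2:191070597-191070657: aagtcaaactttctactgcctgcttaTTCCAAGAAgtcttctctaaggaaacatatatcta
*STAT4* intron 3, chr2:191086869-191086929: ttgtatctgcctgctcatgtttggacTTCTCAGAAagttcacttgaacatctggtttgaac
*CD8B*, chr2:86827190-86827250: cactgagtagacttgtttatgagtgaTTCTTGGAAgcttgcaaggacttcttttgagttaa
The *STAT4* intron 5 summit had a significance of 46.2 and a fold enrichment of 2.38 in an interval of 1907 bp, and the intron 3 summit 4.62 and 2.28. A further *STAT4* summit, without GAS, lay 484 bp from a start site, with a fold enrichment of 1.61. *IL12RB2* and *IL23R*, which encode neighbouring receptor subunits for interleukins of the IL-12 family, had 6 and 5 summits, with fold enrichments of at most 2.29 and 2.35, and 2 of those in *IL23R* had GAS. *JAK1*, the kinase bound to the interleukin-7 receptor alpha chain, had 2, with fold enrichments of 2.18 and 2.29 and no GAS. *CSF3R* and *LEPR* had 1 and 3 summits without GAS. Promoter summits were present at *IL12RB2*, *CSF3R*, *JAK1*, and *STAT4*, 4 of the 17, against the 13.2% of all genes on those chromosomes. Those of *IL12RB2*, *CSF3R*, and *JAK1* were at internal start sites, in introns 3, 4, and 20. None of the 15 STAT5 target genes listed had a summit, but only 2 of them are on chromosomes 1 and 2, so this says little about binding at them.

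In T cell receptor signaling and costimulation, 7 of 52 genes had a summit, 6 of them among the 23 on chromosomes 1 and 2. *CD8B*, the beta chain of the CD8 coreceptor, had 4, the strongest with a significance of 30.9 and a fold enrichment of 3.58 in intron 3 without GAS, and the GAS summit with 22.2 and 2.84. *VAV3* had 15 over 394 kb, with fold enrichments from 2.00 to 2.60 and GAS at 1. The costimulatory receptor gene *CD28* had 1 in intron 3 (2.47), *CD58*, an adhesion ligand, had 5, *FOSL2* had 3, and *BCL10* had 1, none with GAS. *FOS*, on chromosome 14, had a GAS summit 1834 bp upstream of its start site, with a significance of 6.68.

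Of 43 transcription factors of T-ALL and the T lineage, 14 of them on chromosomes 1 and 2, 3 had summits. *NOTCH2*, a receptor of the Notch family, had 12 with fold enrichments from 2.03 to 2.91, *IKZF2*, which encodes Helios, had 10 from 1.71 to 2.44, and *LMO4* had 1. GAS lay at 1 in *NOTCH2* and 1 in *IKZF2*. Of 41 cell cycle and survival genes, 28 on chromosomes 1 and 2, 6 had summits and 0 of their 8 summits had GAS. *CCNT2*, a cyclin of the transcription elongation kinase, had its summit 55 bp from the start site with a significance of 18.8 and a fold enrichment of 3.12, and *MCM6*, a subunit of the replicative helicase, had one 212 bp from the start site with 15.2 and 3.11. *CDC7* and *MYCL* also had promoter summits, that of *MYCL* with a fold enrichment of 2.50. That of *CDC7* was near an internal start site, in intron 6, with a fold enrichment of 2.1 and a significance of 2.43. *CASP10* and *CFLAR*, of the death receptor pathway, had summits in their bodies. Of 33 B cell and myeloid genes, 23 on chromosomes 1 and 2, 1 had a summit, *CSF1*, in intron 4, without GAS. Each list can be read against 27.4% of genes on chromosomes 1 and 2 with a promoter or body summit.

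The genes with the most summits were long. *DPYD*, which encodes the enzyme of pyrimidine breakdown, had 70 over 917.3 kb, *ALK*, a receptor tyrosine kinase, 59 over 728.8 kb, and *NEGR1*, a neuronal adhesion protein, 59 over 886.6 kb. *BABAM2*, *MACF1*, *PLPPR5*, *DAB1*, and a gene without a symbol had 33 to 38, and *COL11A1*, *COL24A1*, and *FGGY* had 27 each. Per 100 kb there were 11.6 in *COL11A1*, 7.63 in *DPYD*, and 2.13 in *DAB1*, against 4.08 between 30 and 130 Mb of chromosome 1, and 8.10 in *ALK*, against 2.21 between 20 and 40 Mb of chromosome 2. In these 11 genes GAS lay at 32 of 441 summits (7.26%, 5.02% to 10.1%). It lay at 8.09% (7.33% to 8.91%) of all summits on chromosome 1, where 9 of the genes lie, and these intervals overlap. On chromosome 2, where *ALK* and *BABAM2* lie, the share of all summits was higher, 16.8% (14.6% to 19.0%). By gene, GAS lay at 2 of 70 summits in *DPYD*, 2 of 59 in *ALK*, 4 of 38 in *BABAM2*, and 5 of 34 in *MACF1*. The median fold enrichment in the genes was between 2.08 and 2.29. Genes with 10 or more summits numbered 74, with a median length of 229 kb, against 30.8 kb for all protein-coding genes on chromosomes 1 and 2.

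The list was uneven along the genome. Chromosome 1 held 4732 peaks, of which 4076 (86.1%) were between 30 and 130 Mb, and 5 of its peaks had a significance of at least 20. Chromosome 2 held 1146, of which 123 had a significance of at least 20, and 100 of these were between 40 and 170 Mb, where the median interval was 101950 bp wide. Chromosome 3 held 49, 47 of them between 90 and 100 Mb, next to the centromere, and chromosome Y 54. The remaining 34 peaks, over 18 chromosomes or contigs, were narrow and strong, with a median width of 1764 bp and a median significance of 18.4, against 2.78 over the list, and 18 of them had GAS (52.9%, 35.1% to 70.2%). At a significance of at least 20 it lay at 11 of 16 (68.8%, 41.3% to 89.0%) and in 9.38% (1.98% to 25.0%) of flanks, and under 20 at 7 of 18 (38.9%, 17.3% to 64.3%) and in 25.7% (12.5% to 43.3%), which overlap. On chromosome 3 the intervals at and beside the summits also overlapped: at a significance of at least 5 it lay at 52.8% (35.5% to 69.6%) of 36 summits and in 44.3% (32.4% to 56.7%) of their flanks.

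Intervals ranged from 1498 to 12998351 bp, with a median of 3956 bp. Those over 100 kb numbered 201 and made up 79.1% of the 235 Mb covered, and 48 were over 1 Mb. GAS lay at the summit of 24 of these 48 (35.2% to 64.8%) and of 10.1% (8.31% to 12.0%) of the 1064 under 2 kb. The shortest interval, 1498 bp, and the shortest gap between neighbours, 1499 bp, differed by 1 bp, and the other lists had like pairs, such as 3117 and 3117 bp in KOPT-K1. A long interval is listed with a single summit, so other sites inside it were not described.

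Few DND-41 summits coincided with those of other lines. A summit of another list lay within 500 bp of 648 (10.8%, 10.0% to 11.6%), of JURKAT for 232, HSB-2 for 210, SUP-T13 for 150, LOUCY for 95, and KOPT-K1 for 34. By contrast, 83.8% of the DND-41 summits lay inside an interval of SUP-T13, 78.9% of LOUCY, 61.1% of JURKAT, 49.2% of HSB-2, and 9.26% of KOPT-K1, lists whose intervals over 100 kb made up most of the bases covered. The lists held 6316 peaks in JURKAT, 4368 in SUP-T13, 3052 in HSB-2, 2755 in KOPT-K1, and 2338 in LOUCY. No share at reference positions was worked out for either measure. What the size and clustering of the lists alone would give was thus not tested. GAS summits were near a KOPT-K1 summit in 13 of 625 (2.08%, 1.11% to 3.53%), and those without GAS in 21 of 5390 (0.390%, 0.241% to 0.595%). On chromosome 2 alone the shares were 10 of 192 (5.21%, 2.53% to 9.37%) and 10 of 954 (1.05%, 0.504% to 1.92%), but among peaks with a significance of at least 5 they overlapped, at 3.64% (1.68% to 6.80%) and 1.48% (0.596% to 3.02%). For each of the other lists the intervals with and without GAS overlapped over all peaks and on chromosome 2. At a significance of at least 5 those of JURKAT did not, with 2.43% (0.897% to 5.21%) of GAS summits and 8.02% (5.74% to 10.8%) of those without GAS near a JURKAT summit, opposite to the direction for KOPT-K1. The GAS summits shared with KOPT-K1 included those in *NEB*, *STK39*, *GAD1*, and *LCT*, and single sites whose nearest start sites were those of *AQP7B*, *ANAPC1*, *GALNT13*, and *RPRM*. These last were chosen after their values were seen.

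Strong peaks with GAS were also read in the other lists. At a significance of at least 20, the palindrome lay at 26 of 42 summits in HSB-2 (61.9%, 45.6% to 76.4%), 8 of 55 in KOPT-K1 (14.5%, 6.50% to 26.7%), 4 of 11 in SUP-T13, 1 of 10 in LOUCY, and 0 of 10 in JURKAT. These shares are not compared between lines, as counting intervals hold no error between cultures.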

How the data were processed

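ChIP-Seq libraries of STAT5B and input, 1 each per line, were processed by the authors. Per the study's methods and the submitters' processing notes, reads were trimmed with PRINSEQ, aligned to GRCh38 with BWA 0.7.15-r1140, handled with SAMtools 1.4, and peaks were called per line with MACS2 against the input of that line; caller options are not given in the sources used here. The deposited lists hold the fold enrichment over input, the −log10 p and −log10 q, an integer score, and the summit offset. Summits were annotated with GENCODE 44 and GRCh38 sequence, in the order promoter, exon, intron, distal (Python 3.11.15, SciPy 1.17.1, pysam 0.24.0, SAMtools 1.23.1). Motifs had to lie wholly within 50 bp of the summit. Functions were tested on simulated data. Genes were named if in the 6 gene lists with a summit, or as genes of the 15 promoter summits of highest −log10 q, the 15 promoter GAS summits of highest fold enrichment, the 10 body and the 10 distal GAS summits of highest fold enrichment, or the genes with most summits. *EPAS1* and *CRIM1* were named as the genes of the peaks without GAS among the 10 of highest −log10 q. Members and lists were chosen with earlier results of these data known. Alternatives were stricter thresholds, narrower intervals, other windows, motifs, and distances.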

Additional observations from a re-analysis of the deposited data

How the results depend on the processing

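Of 47 alternatives, 14 left a value within its 95% interval (counts, within 1.5 times) and 33 moved it; the cause was not tested beyond the construction of each alternative. Settings that leave out a chromosome, the limit of 1 Mb, and all those for GAS in peaks of −log10 q 20 or more and for TGTGGTT were chosen after seeing the data. With a −log10 q no lower than 5, 721 peaks were left, with 154 genes with a promoter summit, 19.6% of summits in promoters, 30.9% in introns, 48.5% distal, 34.3% with GAS, a ratio of the GAS share at summits to flanks of 5.30 in place of 2.76, and 17.3% near a summit of another list; at 10 or more, 314 peaks were left. Intervals up to 5 kb left 3519 peaks and 270 genes, 9.06% with GAS, and a ratio of 2.52. A promoter window of 1 kb gave 5.92% of summits and 1 of 5 kb 17.1% and 677 genes, and canonical start sites alone gave 217 genes. GAS within 25 bp lay at 5.74% (ratio 3.08), within 100 bp at 15.9% (2.09), and the palindrome with a pyrimidine after TTC and a purine before GAA at 7.45% (4.52). Without chromosome 2 the GAS share was 8.89% and the ratio 2.36. In peaks of −log10 q 20 or more, GAS lay within 25 bp of 41.7%, within 100 bp of 70.9%, and the stricter palindrome at 49.0%; without chromosome 2 the share was 60.7%. TGTGGTT, in peaks of −log10 q 5 or more, was at 6.54% without chromosome 2, 5.41% within 25 bp, and 13.6% within 100 bp. Summits near another list were 5.54% within 200 bp and 29.9% within 2000 bp. The ratio to flanks was above 1 in every setting tried for it. The share of summits on repeat bases was not run, as the reference used marks no repeats. No paired analysis was possible because each line has 1 STAT5B library and the results come from no test. Depth was not analysed here, and 1 library per line gives no error between cultures.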
